A study of Homo sapiens with 4 samples.

Results

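Histone lysine and acetyl modifying enzymes were examined in Jurkat cells, a human T lymphoblast line, as the genes that add acetyl or methyl groups to histones (writers) and those that remove them (erasers). Members were chosen by name, as genes of the KAT, KMT2, KMT5, SETD, PRMT, HDAC, SIRT and KDM series with EP300, CREBBP, EHMT1, EHMT2, SUV39H1, SUV39H2, NSD1 and DOT1L. The name series gave 69 members and the named genes 8, so that 77 of the 50868 genes in the files belonged to the set, 40 of them writers and 37 erasers. All libraries came from wild-type Jurkat cells grown in RPMI medium with fetal bovine serum and treated for 24 h. The 4 groups were DMSO, the solvent, 0.5 µM JQ1, DMSO with 150 ng/ml PHA, and 0.5 µM JQ1 with 150 ng/ml PHA. JQ1 is an inhibitor of the BET bromodomain proteins, and PHA (phytohaemagglutinin) is a plant lectin that stimulates T cells. Each group had 1 RNA-seq library from 1 cell line, so no condition had a replicate and no test between conditions was made. All intervals given here are 95% intervals of counting error only.

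Acetyltransferases such as EP300 and CREBBP place acetyl groups on histone lysines, and BET proteins bind those acetylated lysines through the bromodomains that JQ1 occupies. Histone deacetylases and sirtuins take the acetyl groups off. Lysine and arginine methyltransferases add methyl marks, and demethylases remove them. Several of these enzymes are altered in T-cell leukaemia. Lysine methyl marks go with active promoters (H3K4), transcribed gene bodies (H3K36, H3K79) or silent chromatin (H3K9, H3K27).

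Total counts per library lay between 18620954 and 19685401. Of the 77 members, 65 had a mean of at least 1 FPKM over the 4 libraries, 37 writers and 28 erasers, and 11503 of all genes did. FPKM are fragments scaled to the library total and to a length assigned to each gene. HEXIM1, a gene used as a marker of BET inhibition, had an FPKM of 36.2 in DMSO, 109 in JQ1, 34.6 in DMSO + PHA and 104 in JQ1 + PHA, and the activation genes EGR1 and CD69 stood at 0.491 and 1.05 FPKM in DMSO and 39.9 and 20.4 in DMSO + PHA. EGR1 and CD69 were at 0.405 and 0.766 FPKM in JQ1 and at 6.85 and 3.14 in JQ1 + PHA. All 11 T cell markers listed were at 1 FPKM or more in every library, against 0 of 5 myeloid, 0 of 4 epithelial or fibroblast and 0 of 3 erythroid markers. Of B cell genes, CD79A had 7.48 FPKM in DMSO, 1.06 in JQ1, 6.33 in DMSO + PHA and 1.01 in JQ1 + PHA, while CD79B and MS4A1 had at most 4 counts in a library.

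By FPKM, the most abundant member was HDAC1, a catalytic subunit of several corepressor complexes, with a mean of 75.8 FPKM. KDM1A (LSD1), an H3K4 demethylase, followed at 43.7 and PRMT1, the main enzyme of asymmetric arginine methylation, at 23.6. Such ranks between genes depend on the length assigned to each gene. The median of the 65 members was 6.77 FPKM against 4.96 over all genes that passed. Among those that passed, the lowest was SIRT6 at 1.31, and the nearest below the limit of 1 FPKM was SIRT4 at 0.979. The 12 members below the limit were PRMT8, SETD6, SETD9, HDAC9, HDAC10, HDAC11, KDM8, KDM5D, KDM4D, KDM4E, SIRT3 and SIRT4. PRMT8, a neuronal arginine methyltransferase, and KDM4E had 0 counts in all 4 libraries, and SETD6 had 1 count in DMSO and 0 in the others.

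Comparison of JQ1 with DMSO asked what BET inhibition did to the transcripts of these enzymes. More members were higher than lower in JQ1. Most demethylases and acetyltransferases and 3 of 5 sirtuins were on the higher side, while PRMT1, PRMT3, PRMT5 and PRMT6 were on the lower. By the rule of a 2-fold ratio of FPKM after a pseudocount of 0.1, KAT2B, KDM5B, KDM7A and KDM3A were higher in JQ1 than in DMSO, 4 of 65 against 5.22% of all genes tested. KAT2A was the 1 member past 2-fold lower, against 8.65% of all genes. With PHA present, KAT2B and HDAC3 were past 2-fold higher in JQ1, 2 of 65 against 3.69% of all genes, and KAT2A and PRMT5 past 2-fold lower, 2 of 65 against 8%. With a pseudocount of 1, KDM3A (0.88) and KDM7A (0.90) were no longer past 2-fold without PHA, nor KAT2A (-0.91), PRMT5 (-0.97) and HDAC3 (0.93) with PHA, and PRMT5 with PHA was also lost under TMM and DESeq2 scaling. The share of members past 2-fold higher was thus near the background in both pairs, and fewer members than genes at large were past 2-fold lower.

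**Figure D1:**
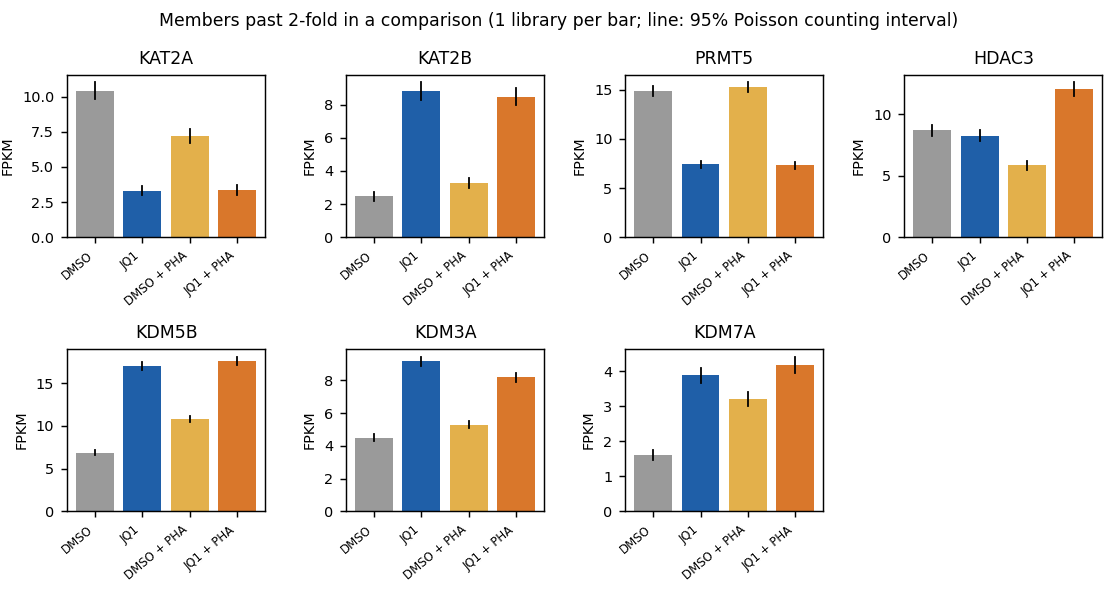
FPKM (vertical axis, from 0) of the 7 members past 2-fold in a comparison, with a bar for each of the 4 libraries and a line for the 95% Poisson counting interval. KAT2A and PRMT5 were lower in both JQ1 libraries, KAT2B, KDM5B, KDM3A and KDM7A were higher in both, and HDAC3 was highest in JQ1 + PHA.

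Smaller differences were counted through the share of each gene in all counts of its library, with an exact (Clopper-Pearson) interval of the log2 ratio. Without PHA, this interval lay above 0 for 40 of 65 members (61.5%) against 36.9% of all genes, and below 0 for 19 (29.2%) against 38.7%. With PHA, 37 members (56.9%) lay above 0 against 34.6% of all genes, and 19 (29.2%) below against 38.2%. Whether an interval leaves 0 depends on the number of counts as well as on the ratio. Intervals included 0 for 6 members without and 9 with PHA, against 2810 and 3122 of 11503 genes. The part of depth in these shares was not tested. The median log2 ratio of FPKM was 0.26 over the members in each pair, and -0.01 without and -0.02 with PHA over all genes. Members together held 0.663% of all counts in DMSO, 0.788% in JQ1, 0.681% in DMSO + PHA and 0.782% in JQ1 + PHA. These are bulk libraries, in which a change in the mix of cells and a change of RNA per cell cannot be told apart. Members were also long genes, 37 of 65 lying in the longest of 3 equal classes of genomic span. In that class the median log2 ratio was 0.13 without and 0.08 with PHA over all genes, and 0.46 and 0.28 over the members, and the part of gene length in the members' values was not tested. The pairs with and without PHA share no library. In both of them 35 members lay above 0 and 16 below, and HDAC7 lay on opposite sides. Spearman's rho between the pairs was 0.868 over 65 members and 0.786 over 11503 genes, as a description across genes.

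**Figure D2:**
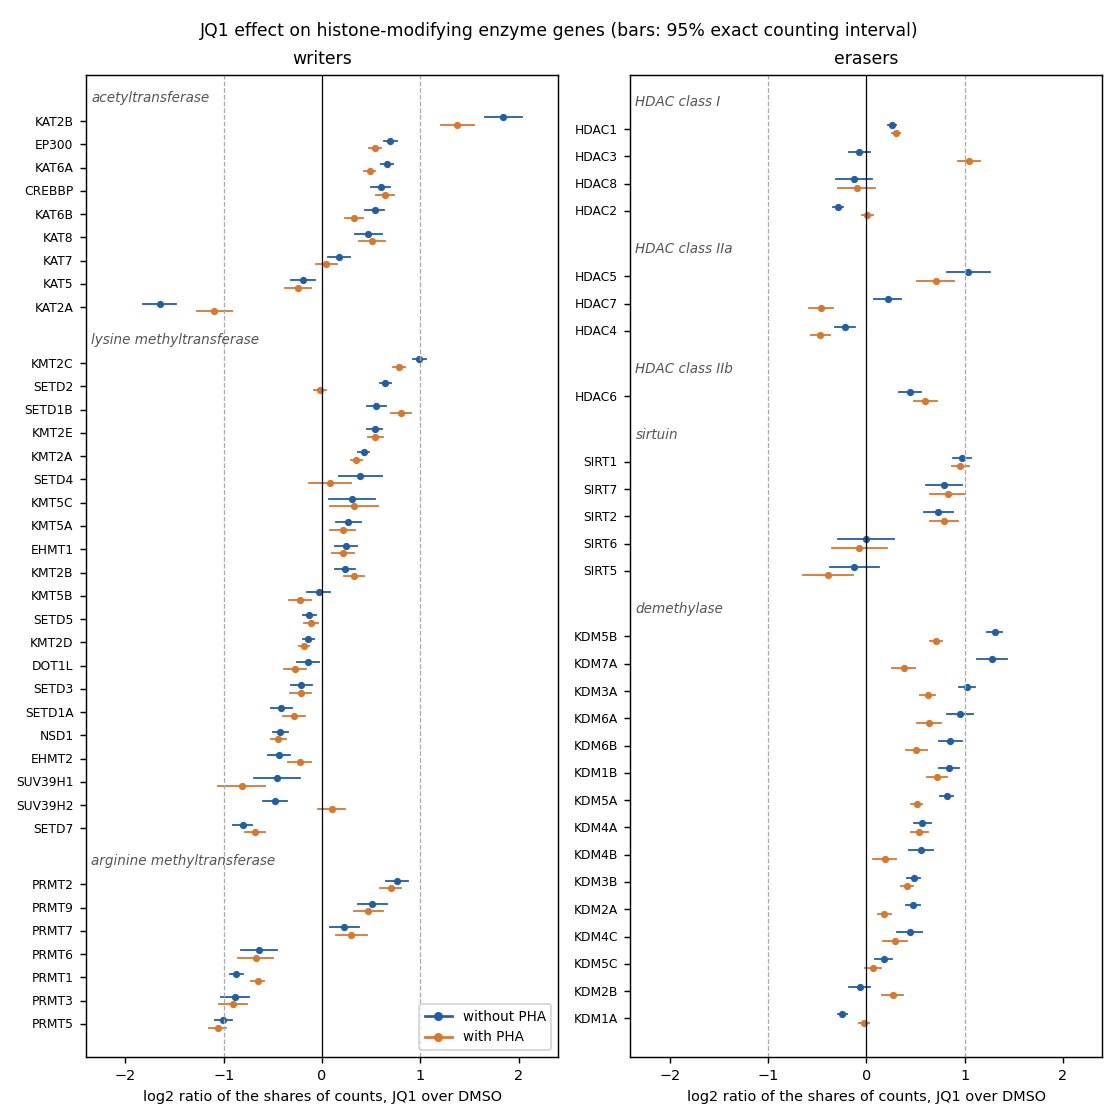
Log2 ratio of the shares of counts, JQ1 over DMSO (horizontal axis), for the 65 members that passed 1 FPKM, without PHA (blue) and with PHA (orange), with 95% exact counting intervals and dashed lines at 2-fold. Of the 15 demethylases, 13 lay above 0 in each pair, whereas lysine methyltransferases were spread to both sides.

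Writers and erasers differed in their medians. Writers had a median log2 ratio of FPKM of 0.22 without and 0.07 with PHA, and erasers of 0.47 and 0.39. Among acetyl enzymes the order was the reverse, with medians of 0.52 and 0.48 for writers and 0.21 and 0.30 for erasers. Intervals of 20 writers lay above 0 and of 16 below without PHA, against 20 erasers above and 3 below. With PHA, 17 writers lay above and 16 below, and again 20 erasers above and 3 below. In summed counts the writers' share was 1.1-fold higher in JQ1 than in DMSO and the erasers' share 1.3-fold, with 1.06-fold and 1.26-fold in the pair with PHA. In the gene coordinates of the files, 16 of the 65 members were overlapped by a gene with at least 10% of their counts, and without them the medians of writers were 0.25 and 0.14 and those of erasers 0.46 and 0.37. Of the 7 members past 2-fold in a comparison, KAT2A alone was among the 16. Without the arginine methyltransferases, the writers' median was 0.23 without and 0.09 with PHA.

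Acetyltransferases were mostly higher in JQ1, with 7 of 9 intervals above 0 without PHA and 6 of 9 with it, and median log2 ratios of FPKM of 0.52 and 0.48. Among them, KAT2A and KAT2B lay on opposite sides of 0. KAT2A (GCN5) and KAT2B (PCAF) are close paralogs that take the same place in the SAGA and ATAC coactivator complexes and acetylate H3K9. KAT2A (chr17:42113108-42121358, minus strand of GRCh38) had an FPKM of 10.4 in DMSO, 3.32 in JQ1, 7.17 in DMSO + PHA and 3.36 in JQ1 + PHA, on 369 to 1155 counts. Both JQ1 libraries were below both DMSO libraries. Its share of counts was 3.14-fold lower in JQ1 than in DMSO, a log2 ratio of -1.65 (-1.82 to -1.48), and 2.14-fold lower with PHA, a log2 ratio of -1.09 (-1.28 to -0.92). KAT2B (chr3:20040023-20154404, plus strand) had an FPKM of 2.46 in DMSO, 8.81 in JQ1, 3.26 in DMSO + PHA and 8.47 in JQ1 + PHA, on 292 to 1095 counts. The order was the reverse of that of KAT2A, with both JQ1 libraries above both DMSO libraries. Its share was 3.59-fold higher in JQ1, a log2 ratio of 1.84 (1.65 to 2.03), and 2.6-fold higher with PHA, a log2 ratio of 1.38 (1.21 to 1.55).

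KAT2B therefore made up 19.1% of the summed FPKM of the pair in DMSO, 72.6% in JQ1, 31.3% in DMSO + PHA and 71.6% in JQ1 + PHA. KAT2A was the more abundant paralog in the DMSO libraries and KAT2B in the JQ1 libraries. The summed counts of both genes differed less between JQ1 and DMSO than either gene, with a log2 ratio of the shares of -0.03 (-0.14 to 0.07) without PHA and 0.22 (0.11 to 0.33) with it. The noncoding gene CTD-2132N18.3 overlaps KAT2A on the same strand and held up to 267 counts. Its log2 ratio in JQ1 was 0.27 (0.01 to 0.54) without PHA and -0.35 (-0.84 to 0.14) with it, an interval that included 0. How reads in the overlap were assigned is not given in the sources used here.

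Promoters of 70 members were found in the RefSeq table of GRCh38.p14, 105 promoters in all, and 250 bases before the start were searched on both strands for 6 short motifs. These were the GC box (GGGCGG), the CCAAT box (CCAAT), an E-box (CACGTG), an ETS site (CCGGAAG), a CRE (TGACGTCA) and a TATA box (TATAAA), of which none contains another. The promoters of KAT2A and KAT2B are printed because these paralogs differed in direction, with those of PRMT6, lower in both JQ1 pairs, and SIRT1, the sirtuin with the highest ratios. They were taken from members whose window held no exon of GENCODE 44. Capitals mark motif matches on either strand, which are GC boxes in KAT2B and GC boxes and E-boxes in SIRT1.
KAT2A, chr17:42121368-42121617, minus strand: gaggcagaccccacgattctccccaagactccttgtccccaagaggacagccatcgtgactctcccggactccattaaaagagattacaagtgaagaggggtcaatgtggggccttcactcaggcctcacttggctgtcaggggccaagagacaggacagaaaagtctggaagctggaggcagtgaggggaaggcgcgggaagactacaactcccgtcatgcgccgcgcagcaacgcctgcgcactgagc
KAT2B, chr3:20040196-20040445, plus strand: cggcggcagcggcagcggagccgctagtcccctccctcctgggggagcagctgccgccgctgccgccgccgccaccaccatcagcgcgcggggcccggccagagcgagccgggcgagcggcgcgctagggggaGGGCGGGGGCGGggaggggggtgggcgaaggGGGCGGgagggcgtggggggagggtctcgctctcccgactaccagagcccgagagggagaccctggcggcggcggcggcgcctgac
PRMT6, chr1:107056424-107056673, plus strand: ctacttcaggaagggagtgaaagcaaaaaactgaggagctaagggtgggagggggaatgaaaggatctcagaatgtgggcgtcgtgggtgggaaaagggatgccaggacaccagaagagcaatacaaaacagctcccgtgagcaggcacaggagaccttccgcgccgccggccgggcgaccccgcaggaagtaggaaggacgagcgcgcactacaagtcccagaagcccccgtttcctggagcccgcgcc
SIRT1, chr10:67884406-67884655, plus strand: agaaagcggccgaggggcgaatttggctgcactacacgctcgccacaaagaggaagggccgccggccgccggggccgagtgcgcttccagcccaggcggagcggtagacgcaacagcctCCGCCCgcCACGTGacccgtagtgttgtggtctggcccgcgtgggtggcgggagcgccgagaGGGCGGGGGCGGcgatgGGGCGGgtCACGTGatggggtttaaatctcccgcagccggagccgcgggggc
The KAT2A window held 0 matches to the 6 motifs and 11 CpG dinucleotides, and that of PRMT6 0 matches and 16 CpG. The KAT2B window held 3 GC boxes and 33 CpG, and that of SIRT1 4 GC boxes, 2 E-boxes and 32 CpG. The RefSeq start used for KAT2B lies inside the gene model of the files, which begins further upstream. A GC box was found in 67.6% of the 105 member promoters and in 42.6% of all 35116 promoters of the table. Neither set was limited to genes past 1 FPKM, and GC content was not matched between them. Of promoters of members above 0 in both JQ1 pairs, 80% of 40 had a GC box, and of those below 0 in both pairs 58.3% of 24. An E-box was found in 10% of the former and 25% of the latter. These promoters belonged to 30 and 15 genes. Windows of the same gene, as in HDAC4 and NSD1, were counted separately, and some overlap. Member promoters had a median GC content of 67.2% and 23 CpG, against 58% and 11 CpG over all promoters. For the other motifs, the share among member promoters and among all promoters was 29.5% and 32.0% for CCAAT, 10.5% and 6.34% for the E-box, 12.4% and 8.52% for ETS, 1.90% and 1.65% for CRE, and 0.952% and 10.7% for TATA. Several genes have more than 1 promoter in the table, and a match is a run of letters, not a measured binding site.

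EP300 and CREBBP, the paralogs that acetylate H3K27 at enhancers, were both higher in JQ1. EP300 had an FPKM of 11.7 in DMSO, 18.9 in JQ1, 12.9 in DMSO + PHA and 18.9 in JQ1 + PHA, and CREBBP of 3.89 in DMSO, 5.87 in JQ1, 4.02 in DMSO + PHA and 6.27 in JQ1 + PHA. Log2 ratios of the shares in JQ1 were 0.69 (0.63 to 0.76) and 0.54 (0.48 to 0.60) for EP300 without and with PHA, on 3224 to 5457 counts, and 0.60 (0.50 to 0.69) and 0.64 (0.55 to 0.73) for CREBBP, on 1501 to 2396 counts. EP300 stayed between 3.01 and 3.22 times CREBBP in FPKM in all libraries, so their balance was nearly the same. KAT6A (MOZ), the acetyltransferase with the highest mean FPKM, had 14.8 in DMSO, 23.3 in JQ1, 17.3 in DMSO + PHA and 24.2 in JQ1 + PHA, and its paralog KAT6B (MORF) 2.92 in DMSO, 4.22 in JQ1, 3.65 in DMSO + PHA and 4.58 in JQ1 + PHA. KAT6A was 0.66 (0.60 to 0.72) and 0.48 (0.43 to 0.54) in log2 ratio, on 3721 to 6153 counts, and KAT6B 0.53 (0.44 to 0.63) and 0.32 (0.23 to 0.41), on 1402 to 2177 counts. KAT8 (MOF), which acetylates H4K16, was also above 0 in both pairs, at 0.47 and 0.51. The gene RP11-196G11.5 overlaps KAT8 on the same strand with up to 179 counts, and was itself at 0.61 and 0.41. KAT5 (Tip60), the catalytic subunit of the NuA4 complex, was below 0 in both at -0.20 and -0.25, but RNASEH2C overlaps it on the other strand with up to 1660 counts. KAT7 (HBO1) was above 0 without PHA, at 0.18 (0.06 to 0.29), while its interval with PHA, 0.04 (-0.07 to 0.15), included 0.

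**Figure D3:**
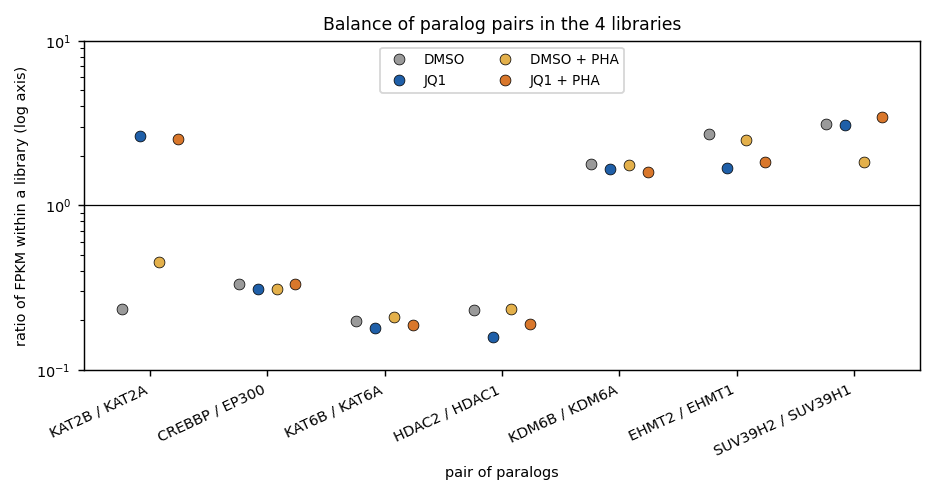
Ratio of the FPKM of 7 pairs of paralogs within each library (vertical log axis, the line at 1 marks equal FPKM), with 1 point per library. Of the 7 pairs, KAT2B over KAT2A crossed 1 between the DMSO and the JQ1 libraries, from 0.236 to 2.66 without PHA and from 0.455 to 2.52 with it, and the other pairs stayed on the same side.

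Lysine methyltransferases were divided. Of 21 that passed, 10 lay above 0 and 10 below without PHA, and 8 above and 10 below with PHA, with medians of -0.03 and -0.02. KMT2C (MLL3), which sets H3K4me1 at enhancers, had the highest ratio without PHA, with an FPKM of 4.88 in DMSO, 9.69 in JQ1, 5.47 in DMSO + PHA and 9.38 in JQ1 + PHA. Its log2 ratio in JQ1 was 0.99 (0.93 to 1.05) without and 0.78 (0.72 to 0.84) with PHA, on 2847 to 5913 counts. KMT2D (MLL4), its paralog and the lysine methyltransferase with the highest mean FPKM, had 13.8 in DMSO, 12.6 in JQ1, 14.3 in DMSO + PHA and 12.5 in JQ1 + PHA. KMT2D thus differed little between libraries, with ratios of -0.14 (-0.19 to -0.09) and -0.18 (-0.24 to -0.13), on 5233 to 6288 counts. PRKAG1 overlaps KMT2D on the same strand with up to 1625 counts. SETD1B, which serves bulk H3K4me3, had 8.2 in DMSO, 12.0 in JQ1, 7.0 in DMSO + PHA and 12.2 in JQ1 + PHA and log2 ratios of 0.55 (0.45 to 0.65) and 0.80 (0.70 to 0.90), on 1251 to 2144 counts, the highest of the group with PHA. Its paralog SETD1A was on the other side of 0, at -0.41 and -0.28. KMT2A (MLL1) was at 0.42 and 0.35, KMT2B at 0.23 and 0.33, and KMT2E at 0.54 and 0.54. SRPK2 overlaps KMT2E on the other strand with up to 3791 counts, and was itself at 0.16 and 0.45. Of the 8 genes grouped as H3K4 writers, 5 lay above and 3 below 0 in each pair. This grouping was assigned by gene, and methyltransferase activity of the products, KMT2E among them, was not measured. SETD7, which monomethylates H3K4 and nonhistone proteins, was the lowest lysine methyltransferase without PHA, with an FPKM of 7.29 in DMSO, 4.17 in JQ1, 6.8 in DMSO + PHA and 4.24 in JQ1 + PHA and log2 ratios of -0.81 (-0.90 to -0.71) and -0.68 (-0.78 to -0.58), on 1305 to 2266 counts.

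H3K9 erasers lay above 0 and most H3K9 writers below it without PHA. All 6 H3K9 demethylases that passed were above 0 in both pairs, with medians of 0.55 without and 0.39 with PHA. Of the 4 H3K9 methyltransferases, 3 were below 0 without PHA and 2 with it, with medians of -0.44 and -0.06. EHMT2 (G9a) and EHMT1 (GLP) form a dimer that sets H3K9me2. EHMT2 had an FPKM of 7.5 in DMSO, 5.53 in JQ1, 7.06 in DMSO + PHA and 6.03 in JQ1 + PHA and EHMT1 of 2.76 in DMSO, 3.27 in JQ1, 2.84 in DMSO + PHA and 3.28 in JQ1 + PHA. EHMT2 was below 0 in both pairs, at -0.44 (-0.55 to -0.32) and -0.23 (-0.34 to -0.11), on 1096 to 1421 counts, and EHMT1 above, at 0.25 (0.13 to 0.36) and 0.21 (0.10 to 0.32), on 1177 to 1459 counts. SUV39H1 and SUV39H2 set H3K9me3 in heterochromatin. SUV39H1, on 221 to 411 counts, had an FPKM of 3.16 in DMSO, 2.3 in JQ1, 3.47 in DMSO + PHA and 1.97 in JQ1 + PHA, and was the lowest lysine methyltransferase with PHA at -0.81 (-1.06 to -0.58), against -0.46 (-0.69 to -0.23) without. SUV39H2 had an FPKM of 9.85 in DMSO, 7.08 in JQ1, 6.35 in DMSO + PHA and 6.79 in JQ1 + PHA, on 867 to 1286 counts, and was highest in DMSO. Its log2 ratio in JQ1 was -0.48 (-0.60 to -0.35) without PHA and 0.10 (-0.04 to 0.23) with it. DCLRE1C overlaps SUV39H2 on the other strand with up to 302 counts, and was itself at 0.10 and -0.67.

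SETD2, the enzyme of H3K36me3, had an FPKM of 8.09 in DMSO, 12.7 in JQ1, 8.65 in DMSO + PHA and 8.51 in JQ1 + PHA, on 4190 to 6853 counts. It was high in JQ1 and alike in the other 3 libraries, so that its log2 ratio was 0.65 (0.59 to 0.70) without PHA and -0.02 (-0.08 to 0.04) with PHA. NSD1, an H3K36me2 writer, was below 0 in both pairs at -0.43 and -0.45. DOT1L, the H3K79 methyltransferase, was at -0.14 and -0.28, but AP3D1 on the other strand overlaps its end with up to 2509 counts. Of the H4K20 writers, KMT5A was at 0.27 and 0.21 and KMT5C at 0.30 and 0.33, while KMT5B was at -0.04, with an interval that included 0, and -0.22. SETD3, SETD4 and SETD5, whose substrates are not histones or are not settled, had ratios between -0.21 and 0.39 without and between -0.22 and 0.08 with PHA.

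**Figure D4:**
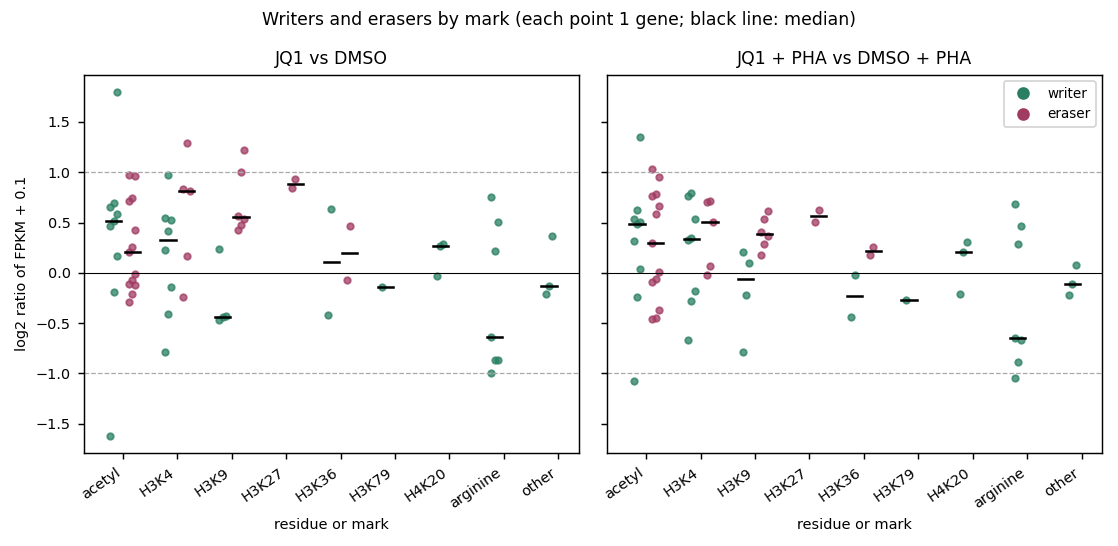
Log2 ratio of FPKM + 0.1 (vertical axis) in JQ1 over DMSO without PHA (left) and with PHA (right) for writers and erasers of each mark, with 1 point per gene and a black line at the median. H3K9 erasers lay above 0 in both panels, with medians of 0.55 and 0.39, and arginine writers formed a higher and a lower group.

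Arginine methyltransferases split into 4 lower and 3 higher genes, the same in both pairs, with medians of -0.63 without and -0.65 with PHA. PRMT5, the main enzyme of symmetric arginine dimethylation (chr14:22920511-22929585, minus strand), had an FPKM of 14.9 in DMSO, 7.42 in JQ1, 15.3 in DMSO + PHA and 7.32 in JQ1 + PHA, on 1605 to 3536 counts. The DMSO libraries were close to each other, as were the JQ1 libraries. Its share of counts was 2.01-fold lower in JQ1 without PHA, a log2 ratio of -1.01 (-1.09 to -0.92), and 2.08-fold lower with PHA, a log2 ratio of -1.06 (-1.15 to -0.97). On the FPKM scale with the pseudocount, PRMT5 was at -0.995 without PHA, just short of 2-fold, and at -1.05 with PHA. PRMT1 had an FPKM of 31.5 in DMSO, 17.2 in JQ1, 28.0 in DMSO + PHA and 17.8 in JQ1 + PHA, on 2771 to 4959 counts, with log2 ratios of -0.87 (-0.94 to -0.81) and -0.66 (-0.72 to -0.59). PRMT3, which methylates a ribosomal protein, was at -0.88 and -0.90, on 584 to 1156 counts. PRMT6, which methylates H3R2, had an FPKM of 12.3 in DMSO, 7.91 in JQ1, 13.5 in DMSO + PHA and 8.44 in JQ1 + PHA, on 407 to 694 counts, with log2 ratios of -0.64 (-0.83 to -0.46) and -0.68 (-0.86 to -0.50). On the higher side, PRMT2 had an FPKM of 3.91 in DMSO, 6.65 in JQ1, 4.2 in DMSO + PHA and 6.81 in JQ1 + PHA, on 1019 to 1811 counts, and log2 ratios of 0.76 (0.65 to 0.88) and 0.70 (0.59 to 0.81). PRMT9 was at 0.51 and 0.47 and PRMT7 at 0.23 and 0.30. PRMT9 is overlapped on the other strand by TMEM184C, which had up to 1689 counts against 915 for PRMT9. The summed share of the group was 1.41-fold lower in JQ1 without PHA and 1.35-fold lower with PHA.

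Most lysine demethylases of the KDM series were higher in JQ1. Of 15 that passed, 13 lay above 0 in each pair, 12 of them in both, and median log2 ratios of FPKM were 0.57 without and 0.41 with PHA. Demethylases and related hydroxylases outside the naming rule did not as a group share this direction, with intervals of 5 of 7 below 0 without and 4 of 7 with PHA and medians of -0.29 and -0.24. KDM5B, an H3K4me3 demethylase (chr1:202724491-202809470, minus strand), had an FPKM of 6.89 in DMSO, 17.0 in JQ1, 10.8 in DMSO + PHA and 17.6 in JQ1 + PHA, on 2025 to 5233 counts. Both JQ1 libraries were near 17 FPKM, and the DMSO libraries differed from each other. Its share was 2.47-fold higher in JQ1 without PHA, a log2 ratio of 1.31 (1.23 to 1.38), and 1.63-fold higher with PHA, a log2 ratio of 0.70 (0.64 to 0.77). KDM7A, which removes H3K9me2 and H3K27me2 (chr7:140084746-140177035, minus strand), had an FPKM of 1.61 in DMSO, 3.88 in JQ1, 3.21 in DMSO + PHA and 4.18 in JQ1 + PHA, on 494 to 1272 counts. DMSO alone was low, and the other 3 libraries lay between 3.21 and 4.18. The log2 ratio of KDM7A in JQ1 was 1.27 (1.12 to 1.43) without and 0.38 (0.26 to 0.50) with PHA. KDM3A, an H3K9me1 and H3K9me2 demethylase (chr2:86440647-86492716, plus strand), had an FPKM of 4.51 in DMSO, 9.16 in JQ1, 5.3 in DMSO + PHA and 8.18 in JQ1 + PHA, on 1894 to 4021 counts. Both JQ1 libraries were above both DMSO libraries, with log2 ratios of 1.02 (0.94 to 1.1) and 0.63 (0.55 to 0.70).

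KDM6A (UTX) and KDM6B (JMJD3), which remove H3K27me3, were both higher in JQ1. KDM6A, a partner of KMT2C and KMT2D in the same complex, had an FPKM of 3.35 in DMSO, 6.48 in JQ1, 4.33 in DMSO + PHA and 6.73 in JQ1 + PHA, on 663 to 1341 counts. KDM6B had 6.01 in DMSO, 10.8 in JQ1, 7.58 in DMSO + PHA and 10.8 in JQ1 + PHA, on 908 to 1714 counts. Log2 ratios were 0.95 (0.82 to 1.09) and 0.64 (0.51 to 0.76) for KDM6A and 0.85 (0.74 to 0.97) and 0.51 (0.40 to 0.62) for KDM6B. Of the other demethylases, KDM5A was at 0.82 and 0.51 and KDM1B (LSD2) at 0.84 and 0.72. KDM3B, KDM4A, KDM4B, KDM4C and KDM2A lay between 0.44 and 0.57 without PHA and between 0.18 and 0.54 with PHA. KDM5C was above 0 without PHA, at 0.17 (0.09 to 0.26), and KDM2B with PHA, at 0.27 (0.16 to 0.38), and the other interval of each included 0. KDM2B shares its locus with RNF34 on the other strand, which had up to 1468 counts. KDM1A, the most abundant demethylase, was the exception, with an FPKM of 49.4 in DMSO, 41.6 in JQ1, 42.2 in DMSO + PHA and 41.5 in JQ1 + PHA, on 6190 to 7445 counts. It was highest in DMSO, and its log2 ratio was -0.25 (-0.29 to -0.20) without PHA, the lowest of the group, and -0.02 (-0.07 to 0.03) with PHA.

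Deacetylases of the HDAC series had no common direction. Of 8 that passed, 4 lay above 0 and 2 below in each pair, and medians were 0.07 without and 0.15 with PHA. HDAC1 and HDAC2 are the paired catalytic subunits of the Sin3, NuRD and CoREST complexes. HDAC1 had an FPKM of 72.2 in DMSO, 86.4 in JQ1, 64.8 in DMSO + PHA and 79.8 in JQ1 + PHA, on 8198 to 10918 counts, and HDAC2 of 16.8 in DMSO, 13.8 in JQ1, 15.1 in DMSO + PHA and 15.2 in JQ1 + PHA, on 5249 to 6131 counts. HDAC1 was above 0 in both pairs, at 0.26 (0.22 to 0.30) and 0.30 (0.26 to 0.34). HDAC2 was at -0.29 (-0.34 to -0.24) without PHA and at 0.01 (-0.04 to 0.06) with it. HDAC1 had 4.3 times the FPKM of HDAC2 in DMSO and 6.28 times in JQ1, and 4.28 and 5.23 times in the libraries with PHA. The size of these ratios depends on the lengths behind the FPKM, 6424 bases for HDAC1 and 19380 for HDAC2. In counts, DMSO held 8729 for HDAC1 and 6131 for HDAC2. HDAC3, the deacetylase of the NCoR and SMRT corepressors (chr5:141620876-141636870, minus strand), had an FPKM of 8.67 in DMSO, 8.25 in JQ1, 5.83 in DMSO + PHA and 12.0 in JQ1 + PHA, on 954 to 1863 counts. It was lowest in DMSO + PHA and highest in JQ1 + PHA, and both libraries without PHA lay between. The log2 ratio of HDAC3 in JQ1 was -0.07 (-0.18 to 0.04) without PHA and 1.05 (0.93 to 1.16) with PHA. HDAC8, on 436 to 493 counts, had an FPKM of 2.44 in DMSO, 2.23 in JQ1, 2.39 in DMSO + PHA and 2.23 in JQ1 + PHA, and both intervals, -0.13 (-0.31 to 0.06) and -0.10 (-0.29 to 0.09), included 0.

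The class IIa deacetylases, which act as signal-dependent corepressors, also differed among themselves. HDAC5 had an FPKM of 1.1 in DMSO, 2.26 in JQ1, 1.5 in DMSO + PHA and 2.45 in JQ1 + PHA, on 262 to 576 counts, and log2 ratios of 1.04 (0.82 to 1.25) and 0.70 (0.51 to 0.89). HDAC4, the most abundant of them, had 4.56 in DMSO, 3.92 in JQ1, 5.47 in DMSO + PHA and 3.96 in JQ1 + PHA, on 1507 to 2204 counts, and was below 0 in both pairs at -0.22 (-0.32 to -0.12) and -0.47 (-0.56 to -0.37). HDAC7, a regulator of thymocyte selection, had 2.38 in DMSO, 2.76 in JQ1, 3.9 in DMSO + PHA and 2.84 in JQ1 + PHA, on 803 to 1379 counts. It was highest in DMSO + PHA, and its log2 ratio was 0.22 (0.08 to 0.35) without PHA and -0.46 (-0.58 to -0.34) with it. HDAC6, a class IIb enzyme that deacetylates tubulin, had 2.98 in DMSO, 4.04 in JQ1, 2.72 in DMSO + PHA and 4.12 in JQ1 + PHA, on 1036 to 1539 counts, and ratios of 0.44 (0.33 to 0.55) and 0.60 (0.48 to 0.72). HDAC9, the remaining class IIa gene, did not pass the FPKM limit although it had 320 to 491 counts.

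Among sirtuins, the NAD-dependent deacetylases, SIRT1, SIRT2 and SIRT7 were higher in JQ1 and SIRT5 and SIRT6 were not. SIRT1, the most abundant, had an FPKM of 8.63 in DMSO, 16.9 in JQ1, 8.7 in DMSO + PHA and 16.9 in JQ1 + PHA, on 1526 to 3126 counts. Values with and without PHA were nearly equal, and the log2 ratios in JQ1 were 0.97 (0.88 to 1.06) and 0.96 (0.87 to 1.05). SIRT2 was at 0.73 and 0.79, and SIRT7 at 0.79 and 0.83. NFKBIB overlaps SIRT2 on the other strand with up to 365 counts, and was itself at -1.13 and -0.64. SIRT7 is overlapped on the same strand by MAFG, which had 933 counts in DMSO and 302 in JQ1. SIRT5, a mitochondrial enzyme, had an FPKM of 1.52 in DMSO, 1.4 in JQ1, 1.6 in DMSO + PHA and 1.22 in JQ1 + PHA, on 225 to 312 counts. Its log2 ratios in JQ1, -0.12 (-0.37 to 0.12) and -0.39 (-0.65 to -0.14), were the lowest of the group. SIRT6, on 199 to 221 counts, was at -0.01 (-0.29 to 0.28) and -0.07 (-0.35 to 0.21), and both intervals included 0. The median of the 5 sirtuins was 0.71 without and 0.77 with PHA.

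Stimulation with PHA was then compared with no stimulation, without and with JQ1. No member was past 2-fold in either comparison. In DMSO + PHA against DMSO this stood against 2.1% of all genes higher and 1.19% lower, and in JQ1 + PHA against JQ1 against 1.04% and 1.03%. Without JQ1, intervals of 22 members (33.8%) lay above 0 against 24.7% of all genes, and of 12 (18.5%) below against 25.1%. With JQ1, 11 members (16.9%) lay above 0 against 15.6% of all genes, and 6 (9.23%) below against 15.7%. The largest ratio was that of KDM7A, at 1.0 (0.84 to 1.16) in DMSO + PHA over DMSO, which was 0.96 on the FPKM scale with the pseudocount. KDM7A, HDAC7 at 0.71 (0.59 to 0.84) and KDM5B at 0.65 (0.57 to 0.73) were the members above 0.5, and SUV39H2 at -0.63 (-0.76 to -0.51), HDAC3 at -0.57 (-0.69 to -0.45) and KAT2A at -0.54 (-0.67 to -0.41) those below -0.5. With JQ1 the same 6 genes were at 0.11, 0.04, 0.05, -0.06, 0.54 and 0.02. Demethylases were above 0 in 11 of 15 cases without JQ1 and in 3 of 15 with JQ1, with medians of 0.23 and 0.02. DMSO + PHA against DMSO and JQ1 against DMSO share the DMSO library, so their counts are not independent.

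**Figure D5:**
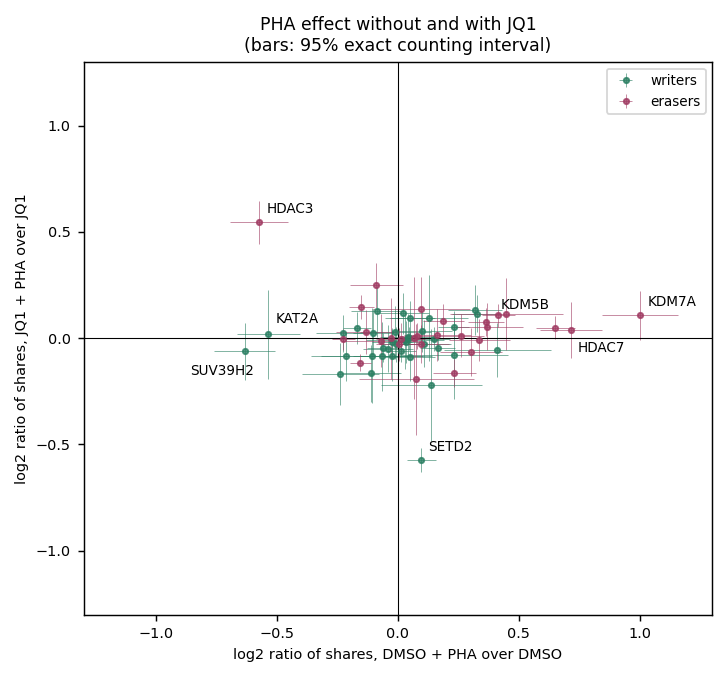
Log2 ratio of the shares of counts with PHA over without PHA, in DMSO (horizontal axis) and in JQ1 (vertical axis), for 65 members with 95% exact counting intervals, the names marking members at 0.5 or more in size. KDM7A, HDAC7 and KDM5B lay to the right near 0 on the vertical axis, HDAC3 was at -0.57 and 0.54, and SETD2 at 0.10 and -0.57.

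The JQ1 effect with PHA was compared with that without PHA as a difference of log2 ratios, with a Wald interval from the 4 counts. This interval lay below 0 for 20 of 65 members (30.8%) and above 0 for 9 (13.8%), against 21.4% and 20.5% of all genes. Differences of 0.5 or more in size were found for 7 members (10.8%), against 17.0% of all genes. HDAC3 had the largest, 1.12 (0.96 to 1.27), followed by KDM7A at -0.89 (-1.08 to -0.70), HDAC7 at -0.68 (-0.86 to -0.50) and SETD2 at -0.67 (-0.75 to -0.59). KDM5B was at -0.60 (-0.70 to -0.50), SUV39H2 at 0.57 (0.39 to 0.75) and KAT2A at 0.56 (0.31 to 0.80). For KAT2A, KDM5B and KDM7A the JQ1 libraries were alike and the DMSO libraries differed, whereas for SETD2 the JQ1 libraries differed and the DMSO libraries were alike. For KAT2B, the difference was -0.47 (-0.72 to -0.22).

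Genes that work with these enzymes were taken from a list of 96 genes for partner subunits and for histone enzymes outside the naming rule, of which 95 passed. In JQ1 without PHA, 6 of the 95 were past 2-fold higher and 4 lower, against 5.22% and 8.65% of all genes. With PHA, 2 were higher and 3 lower, against 3.69% and 8%. These counts were thus near or below the shares of all genes. The median log2 ratio was 0.06 without and 0.05 with PHA. NCOA1, NCOA3 and SMYD5 were past 2-fold in both JQ1 comparisons. NCOA3, a nuclear receptor coactivator that recruits EP300 and CREBBP, had an FPKM of 3.71 in DMSO, 11.1 in JQ1, 3.99 in DMSO + PHA and 11.2 in JQ1 + PHA and log2 ratios of 1.58 (1.47 to 1.7) and 1.48 (1.37 to 1.59). NCOA1, of the same family, had 3.48 in DMSO, 9.59 in JQ1, 4.56 in DMSO + PHA and 9.83 in JQ1 + PHA and ratios of 1.46 (1.35 to 1.58) and 1.11 (1.01 to 1.21). SMYD5, a lysine methyltransferase, was lower, with 11.1 in DMSO, 3.33 in JQ1, 10.7 in DMSO + PHA and 3.74 in JQ1 + PHA and ratios of -1.73 (-1.92 to -1.55) and -1.52 (-1.7 to -1.34). Subunits of the COMPASS and MLL complexes had medians of -0.14 without and 0.05 with PHA, those of acetyltransferase complexes 0.03 and -0.02, and those of deacetylase complexes 0.19 and 0.19. Acetyltransferases outside the naming rule had medians of 0.53 and 0.32, and methyltransferases of -0.07 and -0.19.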

How the data were processed

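Jurkat cells were profiled by RNA-seq with 1 library for each of 4 conditions. The deposited tables hold, per gene, raw counts of reads and FPKM. The FPKM follow from the counts, each library's total count and 1 length per gene. For some members this length exceeds the genomic span, as in PRMT5 with 11773 against 9075 bases and HDAC10 with 13330 against 6223. How the length was derived is not given in the sources used here. FPKM levels of different genes, and the limit of 1 FPKM, depend on it. The submitters' processing notes name GRCh38, Hisat2 2.0.4, TopHat2 2.0.9 and Cufflinks 2.1.1, with no order. The counting program, its annotation and its strand setting are not given in the sources used here. The labels name a VAHTS Universal V6 kit and the paper a stranded kit, so reads of overlapping genes on opposite strands may not have been separated.

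Members were matched by symbol, and EP300 was kept although its name ends in P and digits, since the rule names it. The members, role groups and companion list were chosen with earlier results of these data known. Log2 ratios of FPKM were computed after a pseudocount of 0.1 for genes with a mean of at least 1 FPKM, and a 2-fold ratio was called. Ratios of shares of counts have 95% exact intervals, and 3 counts were the floor. With 1 library per condition no p-value was computed and nothing beyond counting error is covered. Total counts ranged from 18620954 to 19685401, where 3 counts are 0.152 to 0.161 CPM.

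Values in full were given for members past 2-fold in a comparison, for the most abundant, highest and lowest member of each role group, and for 7 pairs of paralogs. Other members were given by ratio, range and count. Alternatives were the pseudocount, the filter, the threshold, centring, scaling factors from edgeR 4.0.16 (TMM) and DESeq2 1.42.0 (R 4.3.3), and the role groups. Overlaps between genes and promoter motifs were searched in the tables' coordinates and in RefSeq promoters of GRCh38.p14. The exact intervals and the 2-fold call were tested on simulated Poisson counts, which hold no variation between libraries beyond counting error. Other steps were not tested in this way. Calculations used pandas 2.3.3, scipy 1.17.1 and numpy 2.4.6 under Python 3.11.15, and figures matplotlib 3.10.9.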

Additional observations from a re-analysis of the deposited data

Results flagged for a closer look

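HDAC7 lay on opposite sides of 0 in the JQ1 comparisons, with a log2 ratio of its count shares of 0.22 without PHA and -0.46 with PHA. For 4 members the effect of PHA had opposite directions without and with JQ1. HDAC3 was at -0.57 without and 0.54 with JQ1, HDAC2 at -0.15 and 0.15, KDM3A at 0.23 and -0.16, and SETD2 at 0.10 and -0.57. With 1 library per condition the difference was not tested between conditions in any of these 5 genes.

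Names left out by the choice of members, as antisense, intronic or pseudogene entries, also held counts. The highest count in a library was 56 for KDM4A-AS1, 4 for KDM5C-IT1, 32 for KMT2E-AS1 and 82 for SETD8P1, each above the floor of 3 counts.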

How the results depend on the processing

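No paired analysis was possible because the groups compared shared fewer than 2 replicate numbers, with 1 library in each. Leaving out a library removes each comparison that uses it, so none was left out. A fit of JQ1 with PHA as a block, which would take the interaction of the treatments as error, was not run. Of the recomputed counts and medians over the members, 129 stayed within 1.5 times the main count or within the spread used as limit, and 15 did not. The writers' median for DMSO + PHA against DMSO changed sign, from 0.02 to -0.00881, among members with a mean of at least 5 FPKM, and no other result changed sign. Members past 2-fold higher in JQ1 without PHA numbered 4, and 2 with a pseudocount of 1 and 5 with a pseudocount of 0.01 (HDAC5 added). They numbered 7 with DESeq2 size factors (HDAC5, KMT2C and SIRT1 added) and 17 at a 1.5-fold threshold. Members past 2-fold lower numbered 1, and 2 with a pseudocount of 0.01 (PRMT5 added) and 6 at 1.5-fold. With PHA, the 2 higher members became 1 with a pseudocount of 1 and 14 at 1.5-fold. The 2 lower members became 0 with a pseudocount of 1, 1 (KAT2A) with TMM factors, 1 (KAT2A) with DESeq2 size factors and 7 at 1.5-fold. For DMSO + PHA against DMSO, 3 members were higher and 1 lower at 1.5-fold, against 0 and 0. Among members with a mean of at least 5 FPKM, the median of writers was 0.0505 in JQ1 without PHA and that of erasers 0.506 with PHA, where fewer genes entered. The interval counts with totals without mitochondrial genes or scaled by TMM or DESeq2, and the medians without members overlapped by other genes, are alternatives chosen after seeing the data. Scaling moved the median of all genes by less than 0.1 on the log2 scale.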
